A study of Mus musculus with 6 samples.

Results

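The endoplasmic reticulum (ER) chaperones fold the proteins that a round spermatid sends to its acrosome and surface, and the testis makes its own versions of some of them. Described here are 10 genes, chosen by name from 22770 gene rows of a ribosome footprint table: Hspa5 (BiP) and Hsp90b1 (GRP94), the lectin chaperones Canx and Calr with the testis forms Clgn and Calr3, and the disulfide isomerases P4hb, Pdia3 and Pdia4 with the testis form Pdilt. All 10 had a row, and all 10 were among the 15578 rows kept for testing (mean over the 6 libraries of 1 FPKM or more). Ribosome-protected fragments were sequenced from mouse testis round spermatids, the haploid cells that follow meiosis, in 3 samples of a genotype labelled Eif5a SKO and 3 wild-type samples. EIF5A is the translation factor that carries hypusine and helps ribosomes through difficult peptide stretches. The labels give no strain, age, further allele or Cre driver and do not spell out SKO. They do not say whether each footprint library comes from a separate animal.

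Newly made secretory and membrane proteins enter the ER unfolded. BiP and GRP94, the ER members of the Hsp70 and Hsp90 families, hold them, the disulfide isomerases form and rearrange their cysteine bonds, and calnexin and calreticulin keep glycoproteins in the ER, with PDIA3 bound to them, until they are folded. In mouse testis calmegin (Clgn) is required to assemble the fertilin ADAM proteins, and calreticulin 3 (Calr3) and PDILT are required for mature ADAM3, a protein that sperm need to reach and bind the egg. When unfolded proteins build up, the transcription factor ATF6 with NF-Y binds the ER stress response element, in which a CCAAT box and CCACG are set apart by a fixed gap, and raises transcription of chaperone genes.

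The ER stress response element is shown first because its letters are shared by the promoters of several of the 10 genes. Promoter sequences of GRCm38 from RefSeq, from 250 bases before to 50 bases after each start, were present for 9 of the 10 genes. Exact matches to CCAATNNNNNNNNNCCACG, on either strand, were found in 4 of the 9, against 39 of 32851 promoters in all (0.119%). The 4 are Hspa5, Calr, Hsp90b1 and Canx, and Hsp90b1 has 2 matches. This element is known from chaperone genes, so matches in them were likely beforehand. The contrast with all promoters is thus no finding of these data. Each line below is a 59-base stretch on the gene's strand, with the CCAAT and CCACG parts (or their reverse complement) in capitals.
Hspa5: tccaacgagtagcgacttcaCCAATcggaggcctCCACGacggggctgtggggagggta
Calr: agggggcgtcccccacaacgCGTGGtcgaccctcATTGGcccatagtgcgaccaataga
Hsp90b1, far match: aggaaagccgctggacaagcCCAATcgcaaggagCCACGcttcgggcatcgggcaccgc
Hsp90b1, near match: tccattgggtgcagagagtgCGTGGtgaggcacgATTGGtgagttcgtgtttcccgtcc
Canx: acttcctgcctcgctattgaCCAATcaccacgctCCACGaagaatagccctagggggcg

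These stretches lie at chr2:34772005-34772063 (plus strand) for Hspa5 and, on the minus strand, at chr8:84847055-84847113 for Calr, chr10:86705618-86705676 and chr10:86705513-86705571 for Hsp90b1, and chr11:50325780-50325838 for Canx. The elements begin 65, 162, 212, 107 and 145 bases before the annotated starts, in the order of the lines. The windows of Calr3, P4hb, Pdia3, Pdia4 and Pdilt held no match, and the Pdilt window belongs to a start inside the gene as listed.

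TGACGTGG, a second ER stress element, and TGACGTCA, the cAMP response element, which share their first 6 letters, were searched on both strands. They matched 0 of the 9 genes, against 0.676% and 1.79% of all promoters. A match is a description of letters, and no match says nothing about binding.

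Eif5a, the targeted gene, had 1.84, 1.93 and 2.99 FPKM in the SKO libraries and 34.2, 48.8 and 61.9 FPKM in the wild-type libraries (log2 fold change -3.90, limma adjusted p = 0.00641). FPKM scale the fragments of a gene by its length and by the library's mapped fragments. Whether that length was the whole transcript or only its translated part is not known here. Comparisons between different genes are therefore approximate, while those of 1 gene between libraries do not depend on it. The values are relative and the absolute depth is unknown, while steps between low values put relative depth between 0.503 and 1 times that of SKO replicate 1. SKO replicate 2, the shallowest, had the highest FPKM of the SKO libraries for all 10 chaperones, and its TMM-type scaling factor (a trimmed mean of log ratios) was 1.31, against 0.848 and 1.08 for SKO replicates 1 and 3 and 0.812, 0.927 and 1.11 for wild type. The libraries also differed in make-up. Protein-coding rows held 18.3%, 33.1% and 29.8% of summed FPKM in SKO and 26.1%, 22.5% and 28.5% in wild type. The 3 densest rows of each library held 41.7%, 24.6% and 39.4% in SKO and 31.7%, 46.4% and 39.7% in wild type. The part of this make-up in the chaperone values was not tested. All 11 round spermatid markers with a row were tested, at summed levels of 1441 to 3014 FPKM in SKO and 894 to 2027 FPKM in wild type. Footprint density combines mRNA amount with translation, and in a bulk sample fewer cells of a type and less RNA per cell cannot be told apart.

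Hspa5, Hsp90b1, Calr, Clgn, Pdia3 and Pdilt were among the densest footprints of these cells, ranking 172 or better in SKO and 358 or better in wild type of 11157 protein-coding rows. The order of the 10 genes differed between genotypes at the top. In SKO the order by mean FPKM was Hspa5, Hsp90b1, Calr, Pdia3, Clgn, Pdilt, Canx, Calr3, P4hb and Pdia4. Wild-type libraries had Hsp90b1 first, then Hspa5, Clgn, Calr, Pdia3, Pdilt, Canx, Calr3, Pdia4 and P4hb, an order that held in each of the 3. In SKO the neighbours kept their order in all 3 libraries except Hsp90b1 over Calr and P4hb over Pdia4, which held in 2. Neighbours in the order overlapped in range over the libraries, except Pdilt over Canx in SKO and Hsp90b1 over Hspa5, Pdia3 over Pdilt, and Canx over Calr3 in wild type. The 10 genes together made up 1.09%, 1.33% and 1.32% of the FPKM of protein-coding rows in SKO, against 1.07%, 1.06% and 1.14% in wild type.

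**Figure D1:**
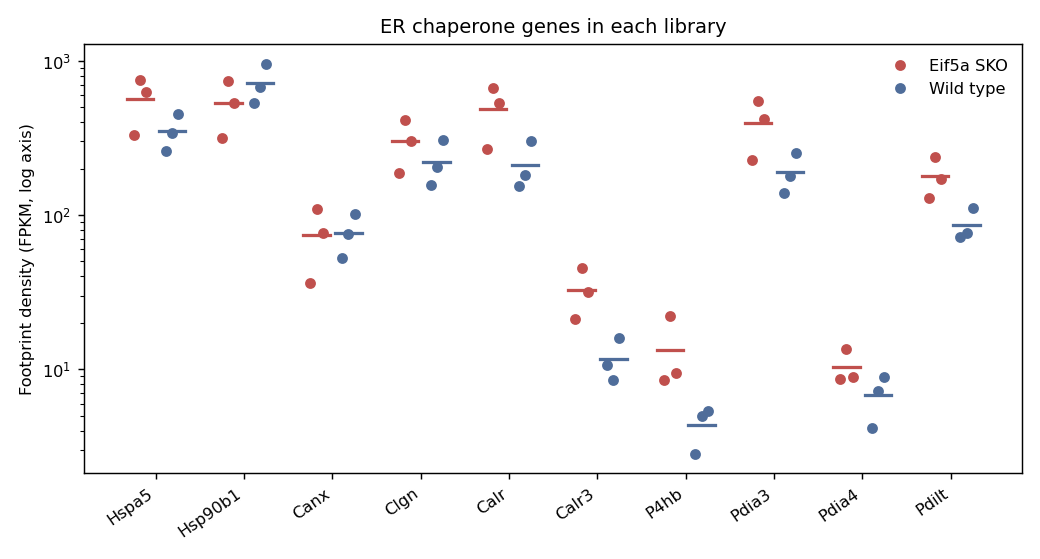
Footprint density (FPKM, log axis) of the 10 ER chaperone genes, 1 point per library, with a line at the mean of the 3 SKO (left) and 3 wild-type (right) libraries. SKO lies above wild type without overlap for Calr3, P4hb and Pdilt, and the other 7 genes overlap.

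BiP, the ER Hsp70 encoded by Hspa5 (chr2:34772090-34776529), had 331, 749 and 626 FPKM in SKO and 258, 341 and 451 FPKM in wild type. The groups overlapped, at means of 569 ± 215 FPKM in SKO and 350 ± 96.6 FPKM in wild type (SD, n = 3 each), and the log2 fold change of FPKM + 1 was 0.65 (SE 0.48, limma adjusted p = 0.654).

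Hsp90b1 (chr10:86690841-86705444), the ER Hsp90, averaged lower in SKO. It had 316, 743 and 531 FPKM in SKO and 531, 674 and 959 FPKM in wild type, a log2 fold change of -0.49 (SE 0.49, limma adjusted p = 0.758). In SKO its rank among 11157 protein-coding rows was 36, 33 and 37, and in wild type it was 13, 14 and 16. Hspa5 ranked 32, 31 and 25 in SKO and 41, 41 and 43 in wild type. The ranks of both genes thus did not overlap, in opposite directions. This is not particular to them, since among the members only the ranks of Clgn overlapped. Canx ranked further down in every SKO library, and Calr, Calr3, P4hb, Pdia3, Pdia4 and Pdilt further up. How many of all rows separate by rank was not counted, so these ranks have no background to be set against.

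Calnexin, the membrane-bound lectin chaperone of Canx (chr11:50293957-50325673), had 36.3, 110 and 76.5 FPKM in SKO and 53.1, 75.6 and 102 FPKM in wild type, with wide overlap (log2 fold change -0.14, SE 0.50, limma adjusted p = 0.954). Calmegin, its testis relative encoded by Clgn (chr8:83389790-83428552), was denser per length in every library. Clgn had 186, 415 and 301 FPKM in SKO and 156, 203 and 306 FPKM in wild type (log2 fold change 0.42, SE 0.47, limma adjusted p = 0.796). Its rank stayed between 82 and 87 in SKO and between 77 and 85 in wild type.

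Calreticulin, the soluble lectin chaperone that also binds calcium, is encoded by Calr (chr8:84842088-84846931). It had 268, 663 and 532 FPKM in SKO and 154, 183 and 300 FPKM in wild type, means of 488 ± 202 and 212 ± 77.4 FPKM (SD, n = 3 each). The lowest SKO library lay below the highest wild-type library, and the log2 fold change was 1.16 (SE 0.50, limma adjusted p = 0.440). Calr3 (chr8:72424176-72443819), the testis calreticulin, was far less dense. It had 21.1, 45.4 and 31.9 FPKM in SKO and 10.7, 8.58 and 15.9 FPKM in wild type. Every SKO library lay above every wild-type library, with a log2 fold change of 1.38 (SE 0.42, limma adjusted p = 0.283).

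Among the disulfide isomerases, Pdia3 (chr2:121413902-121438687), the partner of the lectin chaperones, was the densest. Pdia3 had 227, 545 and 418 FPKM in SKO and 139, 178 and 252 FPKM in wild type, and the groups overlapped (log2 fold change 1.01, SE 0.48, limma adjusted p = 0.479). Pdilt (chr7:119486586-119529036), the testis isomerase, which works with calmegin, came next. Its values were 130, 239 and 171 FPKM in SKO and 72.2, 76.7 and 111 FPKM in wild type, without overlap (log2 fold change 1.03, SE 0.42, limma adjusted p = 0.416).

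P4hb (chr11:120560298-120573253), the founding disulfide isomerase and a subunit of collagen prolyl hydroxylase, was low in these cells. P4hb had 8.58, 22.1 and 9.47 FPKM in SKO and 2.83, 4.96 and 5.38 FPKM in wild type, also without overlap (log2 fold change 1.33, SE 0.44, limma adjusted p = 0.316). Pdia4 (chr6:47796141-47813512), an isomerase also known as ERp72, had 8.69, 13.5 and 8.97 FPKM in SKO and 4.19, 7.25 and 8.92 FPKM in wild type, and the groups overlapped (log2 fold change 0.58, SE 0.38, limma adjusted p = 0.622). The testis isomerase Pdilt was thus denser per length than P4hb in every library, by 10.8 to 18.02 times in SKO and 15.5 to 25.5 times in wild type.

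None of the 10 chaperones passed the test with the deposited values (0 of 10, limma, Benjamini-Hochberg over 15578 rows), where 0.128% of all rows passed. At an unadjusted p under 0.05, 4 of the 10 were higher in SKO (Calr, Calr3, P4hb and Pdilt) and 0 lower, against 8.15% of all rows higher and 2.83% lower. That count of higher members was 1 without SKO replicate 2 (5.14% of all rows) or wild-type replicate 1 (5.36%), 2 without SKO replicate 3 (5.86%) or wild-type replicate 2 (5.65%), and 6 without SKO replicate 1 (11.8%). When only rows averaging 5 FPKM or more were tested, a level that all 10 reach, it was 2, against 11.2% of those rows. The median log2 fold change was 0.83 over the 10 genes and 0.13 over all tested rows, and 8 of the 10 lay above that of all rows. Over rows averaging 5 FPKM or more the median was 0.21. Levels did not overlap for 3 of the 10, all higher in SKO, where 10.9% of all rows lay above wild type without overlap and 4.78% below. The 11 round spermatid markers had a median of 0.62, with 10 of 11 above the median of all rows and 4 higher at an unadjusted p under 0.05 (Spaca1, Spaca3, Spaca7 and Catsper3, genes of the acrosome and sperm tail). Their part in the chaperone values was not tested.

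Markers of somatic testis cells differed between the genotypes beside these values. The 7 Leydig cell markers with a row, of 11 listed, summed to 76.1, 61.2 and 118 FPKM in SKO and 18.1, 13.6 and 18.6 FPKM in wild type. The 5 Sertoli cell markers with a row, of 13 listed, summed to 61.2, 61.7 and 82.4 FPKM in SKO and 13.8, 25.5 and 18.3 FPKM in wild type. Neither sum overlapped between genotypes, and no row of either list was at 0 in all libraries. By gene, Star and Lhcgr of the Leydig list and Amhr2 and Dhh of the Sertoli list overlapped. At an unadjusted p under 0.05, 5 of the 7 and 3 of the 5 were higher in SKO and 0 lower (limma), and 0 passed the test. Of 10 peritubular, endothelial, macrophage and blood cell markers with a row, of 14 listed, 1 passed the test, the stromal gene Dcn, at 10.2, 9.04 and 7.59 FPKM in SKO and 1.44, 1.00 and 0.887 FPKM in wild type (limma adjusted p = 0.0470). The macrophage markers Cd68 and Adgre1 overlapped (log2 fold change -0.61 and -0.10). The smooth muscle genes Acta2, Myh11 and Cnn1 were also higher in SKO without overlap. Haemoglobin genes Hbb-bs, Hbb-bt, Hba-a1 and Hba-a2 were lower in SKO without overlap, and all 7 had an unadjusted p under 0.05. Of all rows, 10.9% lay above and 4.78% below without overlap, and 8.15% were higher and 2.83% lower at that p. Acta2 had 17.6, 21.5 and 12.5 FPKM in SKO and 2.91, 1.90 and 3.98 FPKM in wild type, and Hbb-bs 5.86, 6.19 and 16.1 FPKM in SKO and 17.1, 35.7 and 29.8 FPKM in wild type. Because these sets lie in opposite directions, the list's sum blends them. It summed to 49.1 to 70.7 FPKM in SKO and 57.2 to 118 FPKM in wild type. Pachytene spermatocyte markers summed to 177 to 396 FPKM in SKO and 158 to 284 FPKM in wild type. The general chaperones are made by such cells too, and the part of these cells in the chaperone values was not tested.

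Scaling the libraries changed which chaperones separated. Under TMM-type scaling 0 of 10 passed, against 1.02% of all rows, with the lowest adjusted p for Calr3 at 0.0727 and for Pdilt at 0.0953 (limma). At an unadjusted p under 0.05, 5 were higher (Calr, Calr3, P4hb, Pdia3 and Pdilt) and 1 lower (Hsp90b1), against 8.9% and 6.71% of all rows. In these scaled values 6 members lay above wild type without overlap (Calr, Calr3, P4hb, Pdia3, Pdia4 and Pdilt) and Hsp90b1 lay below, against 11.6% and 9.85% of all rows. Scaled Hsp90b1 averaged 478 ± 98.3 in SKO and 748 ± 106 in wild type, and scaled Calr 439 ± 107 in SKO and 219 ± 44.1 in wild type (FPKM, SD, n = 3 each). With each library rescaled to equal sums over protein-coding rows, 4 members passed and were higher in SKO: Pdilt (limma adjusted p = 0.0312), Calr3 (limma adjusted p = 0.0346), Calr (limma adjusted p = 0.0395) and Pdia3 (limma adjusted p = 0.0411). Under that setting 2.02% of all rows passed as higher in SKO. Quantile normalization gave 1 call, Calr3 (higher, limma adjusted p = 0.0453), against 1.59% of all rows.

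**Figure D2:**
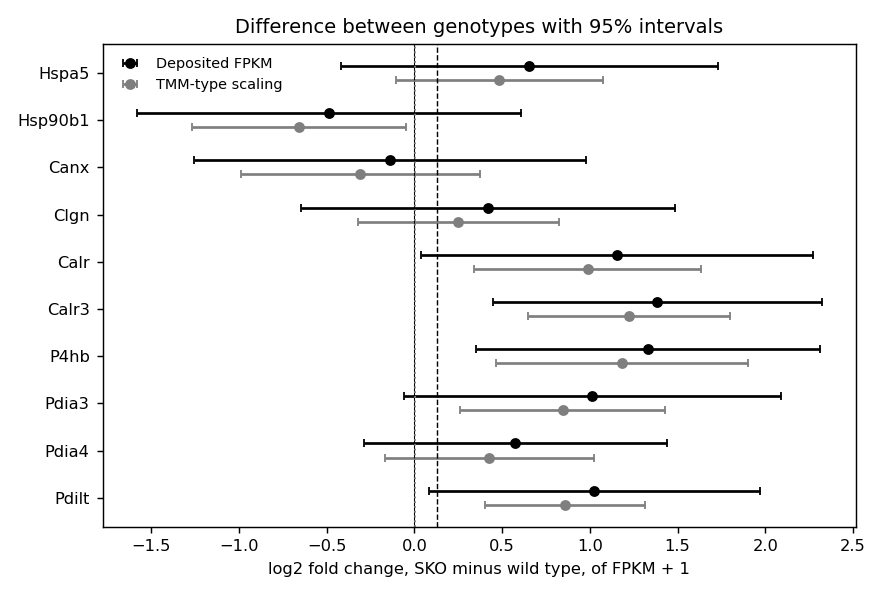
Log2 fold change of FPKM + 1 (SKO minus wild type, n = 3 each) for each chaperone, with 95% intervals from limma, for deposited FPKM (black) and TMM-type scaled FPKM (grey). Dashed and dotted lines mark the median of all tested rows, 0.13 and 0.003; Hsp90b1 and Canx lie to their left and the other 8 genes to their right.

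A single factor per library moves all its genes together, so the make-up of the group does not depend on such a factor, though it does change under quantile normalization. As a share of the 10 genes' summed FPKM, Hsp90b1 held 20.6%, 21.0% and 19.6% in SKO and 38.4%, 38.5% and 38.2% in wild type. The 6 values formed 2 tight groups with a wide gap. Calr held 17.5%, 18.7% and 19.7% in SKO and 11.1%, 10.4% and 11.95% in wild type, and Pdia3 14.8%, 15.4% and 15.5% in SKO and 10.1%, 10.1% and 10.0% in wild type. The share of Clgn was alike in both genotypes, at 11.7% ± 0.507 in SKO and 11.7% ± 0.450 in wild type (SD, n = 3 each). Shares of 6 members were higher in every SKO library (Hspa5, Calr, Calr3, P4hb, Pdia3 and Pdilt), those of Hsp90b1 and Canx were lower in every SKO library, and those of Clgn and Pdia4 overlapped. Shares within other groups of genes were not computed, so these counts have no background and are a description only. Shares sum to 100%, so the lower share of Hsp90b1 by itself raises the others. Of the ratios of Hspa5 to the other 9 genes, 3 were higher and 4 lower in SKO without overlap. For Clgn 2 were higher and 6 lower. The 3 testis forms together held 22.0%, 19.7% and 18.6% in SKO, against 17.3%, 16.5% and 17.2% in wild type. That sum is raised by the lower share of Hsp90b1 too, and a share without Hsp90b1 was not computed.

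**Figure D3:**
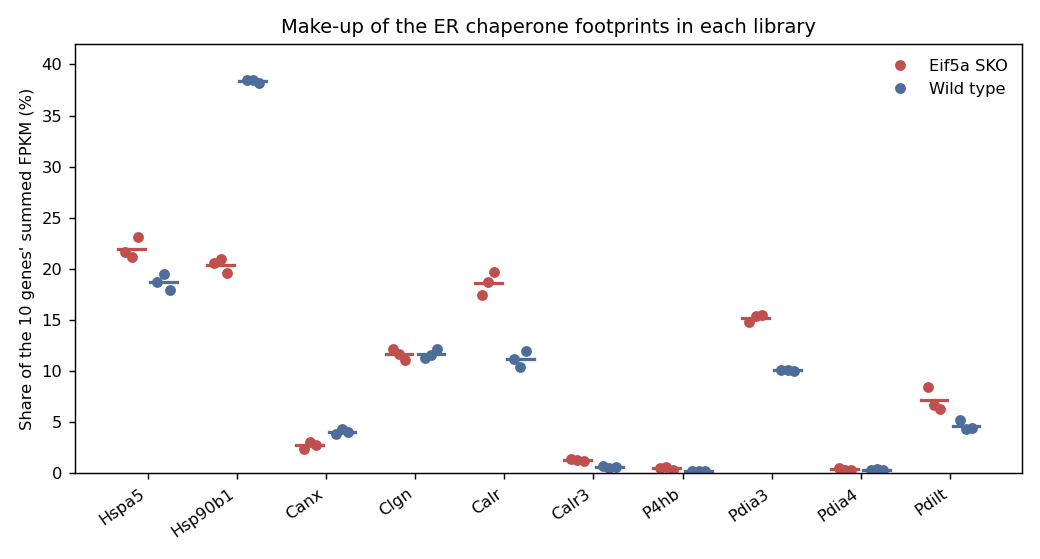
Share of the 10 chaperones' summed FPKM held by each gene (percent), 1 point per library with a line at the group mean, SKO left and wild type right. Hsp90b1 sits near 20% in SKO and 38% in wild type. Clgn has the same mean share in both, though its ratios to 6 of the other 9 genes are lower in SKO without overlap.

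Each testis form was set against its general relative within each library, which asks whether the testis forms differed from the genes they resemble. Clgn was 5.13, 3.78 and 3.94 times as dense as Canx in SKO and 2.94, 2.69 and 2.99 times in wild type. The groups did not overlap, and the log2 ratio was higher in SKO by 0.56 (two-sided exact permutation p = 0.1, the smallest that 20 assignments allow; adjusted over 3 pairs, 0.3). Calr3 was 0.0788, 0.0685 and 0.0599 times as dense as Calr in SKO and 0.0694, 0.0469 and 0.0531 times in wild type, which overlap (log2 difference 0.30, exact permutation p = 0.3). Pdilt over P4hb also overlapped, at 15.1, 10.8 and 18.02 in SKO and 25.5, 15.5 and 20.6 in wild type (log2 difference -0.49, exact permutation p = 0.2). With 3 against 3 libraries no such ratio could pass a threshold of 0.05.

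A further pair of ratios was chosen after the values were seen. BiP over GRP94 (Hspa5 over Hsp90b1) stood at 1.05, 1.01 and 1.18 in SKO and 0.486, 0.506 and 0.470 in wild type. Its log2 ratio differed by 1.14, a 2.21-fold difference, against SDs of 0.12 in SKO and 0.05 in wild type (exact permutation p = 0.1, the smallest possible). Calreticulin over calnexin (Calr over Canx) stood at 7.38, 6.04 and 6.96 in SKO and 2.90, 2.42 and 2.94 in wild type, a 2.47-fold difference (exact permutation p = 0.1). Hspa5, Hsp90b1, Calr and Canx are the 4 genes with the ER stress response element printed above. Within this set Hsp90b1 and Canx had lower ratios to Hspa5 and to Calr in every SKO library. The 14 other tested rows with the element in their promoter had a median log2 fold change of 0.05, against 0.13 over all rows, and 0 of them passed (limma; 1 at an unadjusted p under 0.05).

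**Figure D4:**
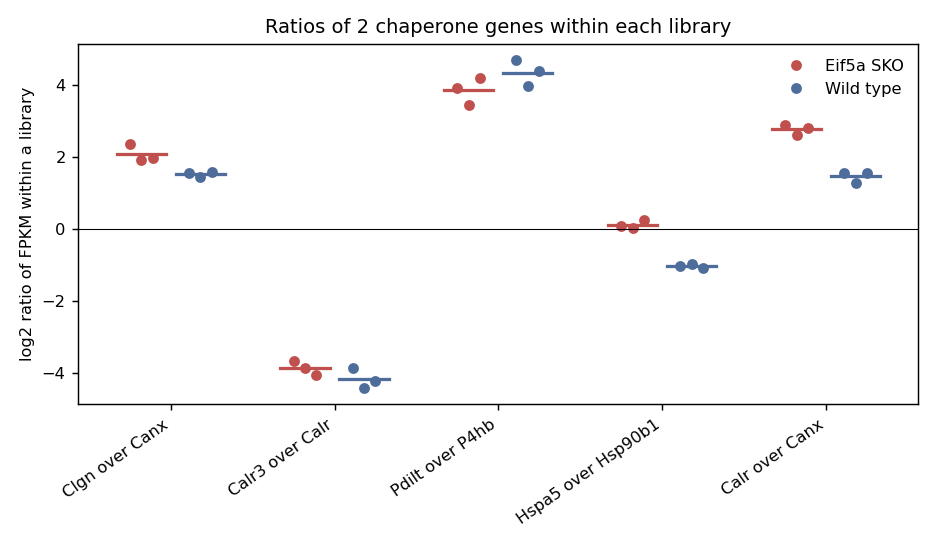
Log2 ratio of the FPKM of 2 chaperone genes within a library, 1 point per library with a line at the group mean, SKO left and wild type right. Hspa5 over Hsp90b1 and Calr over Canx separate by 1.14 and 1.30, Clgn over Canx by 0.56, and the other 2 pairs overlap.

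Of the 45 ratios among the 10 genes, 29 (64.4%) did not overlap between genotypes. For every pair of protein-coding rows that were tested and above 0 in all libraries the share was 20.3%. It was 31.8% for pairs averaging 5 FPKM or more and 58.2% for pairs averaging 50 FPKM or more, the level that 7 of the 10 chaperones reach. Among these 7 the share was 17 of 21 pairs (81%). Separation of a ratio is thus common among dense rows here, and 46.8% of such pairs differed without overlap by at least as much as Clgn over Canx, 19.8% as much as Hspa5 over Hsp90b1 and 14.7% as much as Calr over Canx. Hsp90b1 was lower in SKO in all 9 of its ratios and Canx in 8 of 9, the exception being Canx over Hsp90b1. Every pair of the 7 denser members that holds Hsp90b1 or Canx is thus among the 17, and pairs that share a gene are not independent. In contrast, Pdia3 over Pdilt differed by -0.02 and Calr over Pdia3 by 0.14 on the log2 scale, both with overlap.

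Set against all other protein-coding rows, the chaperones took different places. The ratio of Hsp90b1 to another row was lower in every SKO library for 33.5% of 10956 rows and higher for 1.68%. For Calr3 these were 0.566% lower and 58.0% higher, and for Calr 1.13% lower and 42.3% higher. Clgn had 7.27% lower and 16.8% higher.

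Genes that work beside the chaperones were taken as lists, and 0 of their members passed with the deposited values (limma). Counts at an unadjusted p under 0.05 are given for each list and can be set against the 8.15% of all rows higher and 2.83% lower, or, under TMM-type scaling, 8.9% higher and 6.71% lower. Of 17 tested cofactors of BiP and GRP94, 2 were higher at an unadjusted p under 0.05 (Dnajb9 and Dnajc25, both co-chaperone genes of the J-domain type), or 4 under TMM-type scaling, and the list's median log2 fold change was 0.50. The densest were Manf, which encodes a secreted ER stress protein that binds BiP, at 348, 819 and 624 FPKM in SKO and 247, 289 and 418 FPKM in wild type (limma adjusted p = 0.555), and Creld2, at 60.3, 142 and 92.5 FPKM in SKO and 51.4, 77.3 and 101 FPKM in wild type (limma adjusted p = 0.853). Both were overlapping between genotypes.

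The 17 tested other disulfide isomerases and thiol oxidases had a median of 0.37, with 2 at an unadjusted p under 0.05, both higher (2 higher and 1 lower under TMM-type scaling). Pdia6, the densest of them, had 48.6, 103 and 76.4 FPKM in SKO and 73.1, 61.3 and 90.5 FPKM in wild type (limma adjusted p = 0.988). Erp44, a thioredoxin-family gene that retains clients in the early secretory pathway, had 47.4, 94.9 and 73.9 FPKM in SKO and 25.2, 44.2 and 59.2 FPKM in wild type (limma adjusted p = 0.584). Prdx4, the ER peroxiredoxin that turns peroxide into disulfide bonds, is X-linked and was named after its values were seen. It had 28.8, 70.8 and 50.3 FPKM in SKO and 8.89, 7.04 and 14.2 FPKM in wild type. Its limma adjusted p was 0.135 as deposited. With TMM-type factors it was 0.0367, and no other gene of the 6 lists passed there.

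N-glycan addition and the calnexin cycle had the highest median of the 6 lists, 0.72 over 21 tested genes, with 18 of 21 above the median of all rows and 5 higher at an unadjusted p under 0.05 (Uggt1, Ganab, Tusc3, Magt1 and Krtcap2; 8 under TMM-type scaling). UGGT1 is the sensor that sends misfolded glycoproteins back to calnexin, and Tusc3 and Magt1 encode alternative subunits of the oligosaccharyltransferase. Tusc3 had 39.2, 138 and 91.6 FPKM in SKO and 18.6, 24.2 and 39.0 FPKM in wild type (limma adjusted p = 0.320). Rpn2, a core subunit of the same enzyme, had 124, 145 and 124 FPKM in SKO and 57.2, 108 and 95.6 FPKM in wild type, and its subunit gene Tmem258 had 92.6, 185 and 114 FPKM in SKO and 29.9, 82.1 and 95.8 FPKM in wild type (limma adjusted p = 0.615 and 0.528).

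ER-associated degradation, which takes out proteins that fail to fold, had a median of 0.02 over 22 tested genes, with 0 at an unadjusted p under 0.05 in either direction. Under TMM-type scaling 3 were lower in SKO at that threshold (Derl1, Erlec1 and Ubxn4) and 0 higher. Ubxn4, an ER anchor for the extraction ATPase, had 31.1, 52.4 and 47.2 FPKM in SKO and 43.6, 70.7 and 90.5 FPKM in wild type, and Vcp, the ATPase itself, 15.9, 39.7 and 24.4 FPKM in SKO and 17.9, 27.8 and 37.5 FPKM in wild type. Of 14 listed ER stress sensors and transcription factors, 12 had a row and 10 were tested. The sensor genes Ern1 and Eif2ak3 had no row. Of the 10 tested, 1 was higher at an unadjusted p under 0.05 (Atf6b; 2 under TMM-type scaling), and the median was 0.29. Creb3l4, a membrane-bound transcription factor gene of spermatids, had 46.3, 83.7 and 55.5 FPKM in SKO and 25.4, 34.2 and 48.3 FPKM in wild type (limma adjusted p = 0.543). Ddit3, the stress gene CHOP, is listed at effectively 0 in replicate 2 of both genotypes and had 32.3 and 125 FPKM in the other SKO libraries and 46.4 and 5.28 FPKM in the other wild-type libraries, so no level was read from it.

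Sperm surface proteins, among them clients of the testis chaperones and proteins that ADAM3 needs on its way to the surface, had a median of 0.18 over 28 tested genes, with 4 higher at an unadjusted p under 0.05 (Tex101, Pmis2, Ace and Izumo1) and 0 lower. Under TMM-type scaling 6 were higher and 4 lower at that threshold, the lower ones being the fertilin genes Adam1b and Adam2, with Adam18 and Rnase10. Adam2, a calmegin client and the densest of them, had 75.1, 143 and 120 FPKM in SKO and 121, 173 and 222 FPKM in wild type (limma adjusted p = 0.647). Cmtm2b had 82.1, 225 and 148 FPKM in SKO and 47.0, 86.2 and 131 FPKM in wild type (limma adjusted p = 0.628). Adam3 itself, the shared client of Calr3 and PDILT, had a log2 fold change of -0.02 (limma adjusted p = 0.991), against 1.38 and 1.03 for the chaperones Calr3 and Pdilt.

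**Figure D5:**
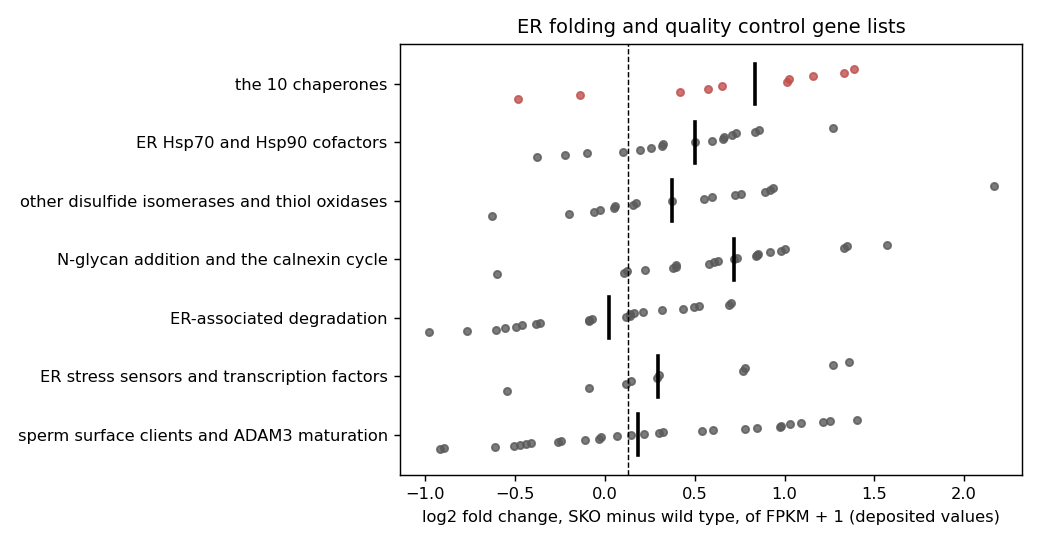
Log2 fold change of FPKM + 1 (SKO minus wild type, deposited values) for each tested gene of the 10 chaperones (top, red) and 6 lists of ER and sperm surface genes (grey), with a bar at each median and a dashed line at the median of all tested rows, 0.13. The chaperones and the N-glycan and calnexin cycle list have the highest medians, 0.83 and 0.72.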

How the data were processed

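FPKM per gene symbol and library were computed by the authors and deposited without counts. The submitters' processing notes name cutadapt, Bowtie2, STAR, Cufflinks and mm10 without their roles, and nothing says how reads with several matches were counted. Columns headed cKO were matched to the SKO samples by genotype and replicate number. Of 2907 rows under 1 FPKM in every library and above 0 in 3 or more, 25.5% stepped in whole numbers of reads within 2%, too few to recover counts, so no count model was used.

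The 15578 rows averaging 1 FPKM or more (7192 were left out) entered 1 two-sided limma model (version 3.58.1, R 4.3.3) of log2(FPKM + 1) with a mean-variance trend. P-values were adjusted by Benjamini and Hochberg's method over these rows, and 0.05 was the threshold. Fold changes on this scale understate those of low genes, and p-values measure only the spread between these samples, which may be technical. TMM-type factors were unweighted means of log ratios after a fraction of 0.3 (by ratio) and 0.05 (by level) was trimmed from both tails. Within-library ratios used no pseudocount and an exact permutation test. The fit was run on simulated data with independent noise per gene and no difference in scale between libraries, so that run does not bear on the scaling of these libraries. Biotypes and gene positions come from RefSeq GRCm38, to which 19305 rows were matched by symbol and 81 more through a synonym.

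The members and lists were chosen with earlier results of these data known. Named genes are Eif5a, the 10 chaperones, from every list the 2 lowest p-values among genes that passed, or the 2 densest genes where none passed, and the 3 nearest patterns of each testis form, 1 of which is not reported here. Others were named after their values were seen. No chaperone shared all 6 of its values with another row.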

Additional observations from a re-analysis of the deposited data

How the results depend on the processing

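The count of 0 chaperones past the test held in 22 of 24 alternatives, and was 1 with quantile normalization and 4 with equal protein-coding sums. Leaving out each library in turn gave 0 members each time, with and without TMM-type scaling. Over all rows, 20 passed with the deposited values. This count was 4 with a pseudocount of 5, 5 with no filter, 86 with a mean of at least 5 FPKM, 63 with robust estimation, 159 with TMM-type scaling, 446 with quantile normalization and 517 with equal protein-coding sums. With 1 library left out it ran from 4 (without wild-type replicate 3) to 27 (without SKO replicate 2). Under TMM-type scaling it was 10, 26 and 8 without SKO replicates 1, 2 and 3, and 28, 8 and 4 without wild-type replicates 1, 2 and 3. With the replicate number as a block 5 rows passed, and 4 with the block and TMM-type scaling. The deviations of same-numbered libraries correlated at 0.0926, 0.0002 and 0.0243, which cannot tell whether the numbers mark pairs. The labels do not say so either, and in the block fit 0 chaperones passed.

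Direction turned for Canx without SKO replicate 1 (log2 fold change 0.30) and without wild-type replicate 3 (0.09), in a range of -0.49 to 0.30 over the libraries left out, and for Clgn with quantile normalization (-0.025). The other 8 chaperones kept their direction in all 24 settings. With 1 library left out, the log2 difference of Hspa5 over Hsp90b1 ran from 1.08 to 1.19, of Calr over Canx from 1.21 to 1.39 and of Clgn over Canx from 0.43 to 0.65. It moved by over 1.5 times for Calr3 over Calr (0.46 without wild-type replicate 1, 0.18 without wild-type replicate 2) and for Pdilt over P4hb (-0.29 without SKO replicate 2, -0.32 without wild-type replicate 1). The log2 fold changes that moved as much were those of Hspa5 (1.00 without SKO replicate 1, 0.42 without SKO replicate 2), Hsp90b1 (-0.16 and -0.77 without the same libraries, -0.26 without wild-type replicate 3), Clgn (0.73 and 0.15 without the same SKO libraries, 0.20 and 0.68 without wild-type replicates 1 and 3), Canx and Pdia4 (0.31 without wild-type replicate 1). The causes were not tested. Absolute depth is unknown.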

Other observations

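The rows whose level over the 6 libraries was most like that of each testis chaperone were looked up among 4689 protein-coding rows (5 FPKM or more on average, without Gm, LOC and Rik names), by Pearson correlation of log2(FPKM + 1). For Clgn they included Cox5a and Eif3c (r of 0.9997 and 0.999). Cox5a had 185, 441 and 306 FPKM in SKO and 156, 207 and 316 FPKM in wild type. For Pdilt they were Spaca5, Fam47c and Dhx15 (r of 0.999, 0.999 and 0.998), with Spaca5, an acrosomal lysozyme-like gene, at 149, 382 and 237 FPKM in SKO and 57.9, 68.7 and 114 FPKM in wild type. For Calr3 they were Cfdp1, Pcbp3 and Kpna4 (r of 0.997, 0.996 and 0.996), with Kpna4, an importin alpha gene, at 45.5, 106 and 71.5 FPKM in SKO and 22.1, 16.7 and 38.9 FPKM in wild type. All points share the library scaling, and r over 6 libraries is a description.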
